A study of Mus musculus with 9 samples.

Results

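The mRNAs of 8 genes of the caspase cascade were followed in mouse leukemia stem cells given hairpins against Csnk1a1, the gene of casein kinase 1 alpha. They encode the initiator caspases Casp8 and Casp9, the effector caspase Casp6, the apoptosome proteins Apaf1 and Cycs, the inhibitors Xiap and Birc2, and Diablo, which opposes those inhibitors. Every probe that the array's annotation pairs with one of these symbols was taken, whatever its level. This gave 24 of the 45281 probes on the array. The 8 genes themselves were chosen with earlier results of these data known. All 9 samples of the study were used. They are Illumina bead arrays of RNA from MLL-AF9 leukemia cells that had received the hairpin Csnk1a1-97 (3 samples), the hairpin Csnk1a1-94 (3 samples) or the control hairpin Luc (3 samples). A hairpin is a short RNA that lowers the message it matches, and Luc is named for luciferase, a gene that mouse cells lack. All groups share the C57BL/6 strain, the Actin-dsRed label, which marks donor cells red, and the MLL-AF9 fusion oncogene. The cells were sorted from the bone marrow of leukemic recipients of a quaternary transplant as c-kit hi, FcyRII hi, CD34+, dsRed+ and Hoechst low. Whether replicates stem from different mice or cultures is not in the labels, and all p-values below measure the spread between these samples, which may be technical.

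Caspases are proteases that are made as inactive precursors and that dismantle the cell during apoptosis. Death receptors at the cell surface activate caspase-8, whereas mitochondrial damage releases cytochrome c, which assembles with Apaf1 into the apoptosome and activates caspase-9. Both routes end in effector caspases, XIAP blocks caspase-9 and some effector caspases, and the Diablo protein, once released from mitochondria, lifts that block. Casein kinase 1 alpha restrains p53 in several cell types, and p53 can feed the mitochondrial route. Most of this control acts on proteins, and the arrays measured mRNA.

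The deposited files give a signal and a detection p-value for each probe, the latter being low where the signal exceeds that of negative control beads. The knockdown arrays had a higher mean signal and more detected probes, but not a higher median signal. The median was 93.1 to 99.0 on knockdown arrays and 95.1 to 101.9 on Luc arrays. The mean signal was 186.0 ± 13.6 with hairpin 97 and 183.5 ± 14.4 with hairpin 94, against 130.3 ± 1.27 with Luc (SD, n = 3 each), and 13544 ± 601, 13507 ± 673 and 9956 ± 602 probes had a detection p-value under 0.05. Levels were therefore background-corrected and quantile-normalised, and each log2 difference below is relative to the whole array. Brightness and knockdown cannot be told apart, since every knockdown array had a higher mean signal than every Luc array. At most 31.5% of probes were detected on an array, so the median of all probes lies among undetected ones. Scaling to that median, used below as an alternative, thus aligns arrays on probes near background. The single Csnk1a1 probe was detected on 0 of 9 arrays, so the knockdown could not be checked. Of the sort markers, Kit, Fcgr3 and Fcgr2b were detected on all 9 arrays, and Cd34 on 4 knockdown arrays and 0 Luc arrays. Of 5 neutrophil markers, 5 were higher after knockdown (Ltf turned to lower with arrays scaled to the probes common to all 9), with a summed level of 7648 to 9398 on knockdown arrays and 3664 to 4218 on Luc arrays. The summed level of 4 monocyte and macrophage markers was 92.7 to 120 on knockdown arrays and 103 to 115 on Luc arrays, and C1qa, Ms4a1, Cd3g, Cd3d, Klf1 and Pf4, markers of other blood cells, were detected on 0 of 9 arrays. Other lymphoid and megakaryocyte markers were detected. Nkg7, of T and NK cells, was detected on all 9 arrays and lower after knockdown by -0.65 (limma adjusted p = 0.0026), but turned to higher with arrays scaled to the median of all probes, and the summed level of its list was 326 to 657 on knockdown arrays and 689 to 723 on Luc arrays. Cd79b, of B cells, was detected on all 9 arrays and differed by 0.45 (adjusted p = 0.13), with a summed level of its list of 72.8 to 129 on knockdown arrays and 56.1 to 96.9 on Luc arrays. Gp9, of megakaryocytes, was detected on 6 knockdown arrays and 1 Luc array. The part of these cells in the results below was not tested. In these bulk samples, fewer cells of a type and less RNA per cell cannot be told apart.

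After knockdown, the mRNAs of the initiator caspases Casp8 and Casp9 were higher and that of Diablo was lower. The largest differences among probes detected on all 9 arrays were those of Casp9, at 1.75-fold, Casp8, at 1.61-fold, and Diablo, 1.51-fold lower (limma over 13641 probes, Benjamini-Hochberg adjusted p = 0.0016 for each), although Diablo turned to higher when arrays were scaled to the median of all probes. No probe of Apaf1, Cycs or Birc2 passed the adjusted p threshold of 0.05, and Xiap was not detected. Of the 24 probes, 16 were tested, because they were detected on at least 3 arrays, and the other 8 were detected on no array. Of these 16 probes, 4 were higher and 1 was lower with both hairpins averaged, which is 31.2%, where 40.7% of all tested probes passed (25.4% higher and 15.3% lower). Of the higher ones, Casp6 ILMN_2923864 was detected on 5 knockdown arrays and 0 Luc arrays. It thus entered the test through knockdown arrays alone. Of the 10 probes detected on all 9 arrays, 3 were higher and 1 was lower, and 48.4% of all such probes passed (22.3% higher and 26.1% lower). The share of caspase cascade probes that passed was thus no larger than that of the arrays at large, and their median difference was 0.05 on the log2 scale, against 0.11 over all tested probes.

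**Figure D1:**
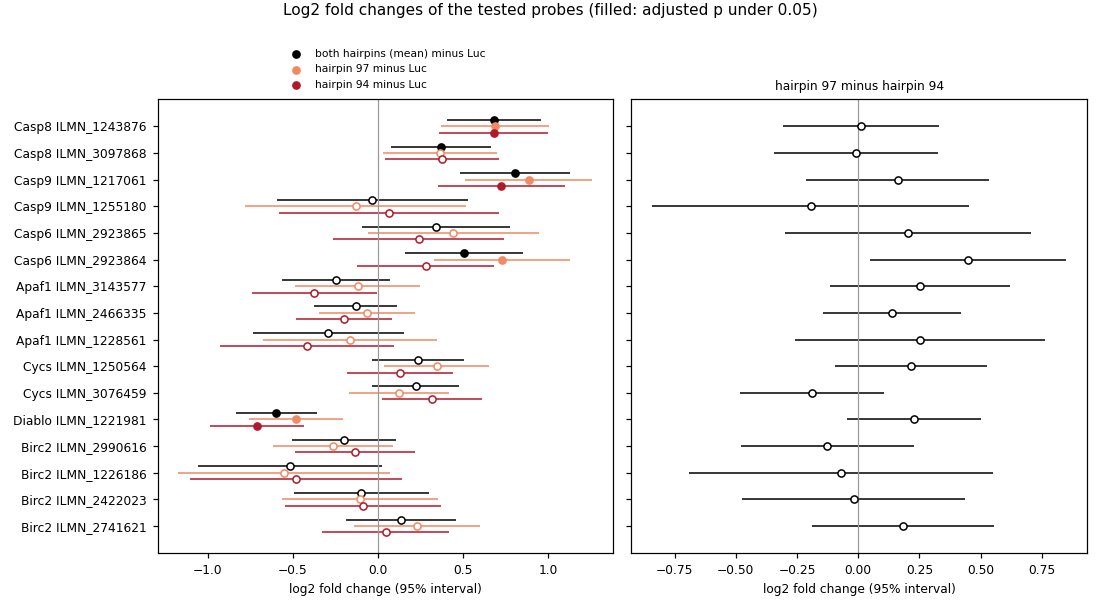
Log2 difference from Luc (x axis) of each tested probe of the 8 genes (rows), for both hairpins averaged, hairpin 97 and hairpin 94, and the difference of hairpin 97 from hairpin 94 (right panel). Points are limma estimates and bars their 95% intervals, filled where the adjusted p was under 0.05. The brightest probes of Casp9 and Casp8 lie right of 0 and that of Diablo left of 0 with each hairpin, and Diablo would lie right of 0 if arrays were scaled to the median of all probes.

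The 250 bases upstream of the start are shown for the 3 genes that carry the clearest differences, because their promoters differ in base composition. They are RefSeq sequences of build GRCm38.p6, and capitals mark the GC box (GGGCGG on one strand, CCGCCC on the other), a motif bound by Sp factors.
Casp8, chr1:58802252-58802501, plus strand: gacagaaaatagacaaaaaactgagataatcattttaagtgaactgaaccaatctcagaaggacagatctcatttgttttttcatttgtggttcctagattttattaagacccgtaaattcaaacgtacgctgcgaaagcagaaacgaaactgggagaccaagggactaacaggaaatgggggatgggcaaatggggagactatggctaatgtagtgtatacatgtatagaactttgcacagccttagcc
Casp9, chr4:141793362-141793611, plus strand: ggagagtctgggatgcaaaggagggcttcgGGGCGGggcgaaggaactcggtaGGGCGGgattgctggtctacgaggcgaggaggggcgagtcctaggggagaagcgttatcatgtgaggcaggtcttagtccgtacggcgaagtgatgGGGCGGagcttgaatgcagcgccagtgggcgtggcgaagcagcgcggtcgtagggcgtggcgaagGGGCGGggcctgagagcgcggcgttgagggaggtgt
Diablo, chr5:123524165-123524414, minus strand: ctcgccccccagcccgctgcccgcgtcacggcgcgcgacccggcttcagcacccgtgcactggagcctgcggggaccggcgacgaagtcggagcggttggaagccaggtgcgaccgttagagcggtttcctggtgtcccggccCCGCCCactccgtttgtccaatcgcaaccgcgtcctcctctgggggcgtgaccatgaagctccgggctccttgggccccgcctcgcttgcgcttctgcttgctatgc
The Casp8 window has a GC content of 39.6% and holds 0 GC boxes, that of Casp9 has 66.0% and 4 boxes, and that of Diablo has 70.4% and 1 box. At least 1 GC box stands in 32.7% of the 32851 promoter windows of the same length in the table, and 4 or more stand in 4.1%. All 8 genes matched the table, with 11 promoter windows between them, of which 7 held a GC box. These matches describe the letters of the windows, and no binding was measured.

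Casp8, the initiator caspase of the death receptor route, was measured by 2 probes annotated to different transcripts of the gene, both detected on all 9 arrays. On the normalised log2 scale, probe ILMN_1243876 read 7.72, 7.55 and 7.78 with hairpin 97 and 7.62, 7.87 and 7.54 with hairpin 94, against 7.14, 6.84 and 7.01 with Luc. Every knockdown array lay above every Luc array. The difference was 0.69 (SE 0.13, 95% interval 0.41 to 0.96, limma adjusted p = 0.0016) with both hairpins averaged, 0.69 with hairpin 97 (adjusted p = 0.0046) and 0.68 with hairpin 94 (adjusted p = 0.0052). The deposited signal of this probe was 377 ± 69.1 with hairpin 97 and 371 ± 96.0 with hairpin 94, against 148 ± 3.91 with Luc (SD, n = 3 each).

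The second Casp8 probe, ILMN_3097868, read 7.56, 7.38 and 7.24 with hairpin 97 and 7.25, 7.49 and 7.46 with hairpin 94, against 6.81, 7.22 and 7.05 with Luc. The lowest knockdown array and the highest Luc array differed by little, at 7.24 and 7.22. Its difference of 0.37 (SE 0.13, limma adjusted p = 0.043) passed with both hairpins averaged but with neither alone (adjusted p = 0.086 for hairpin 97 and 0.081 for hairpin 94). The call was lost when any 1 of 6 arrays was left out (hairpin 97 replicates 4 and 5, hairpin 94 replicates 2 and 3, Luc replicates 1 and 3), with adjusted p up to 0.16, and the sign turned when each array's count of detected probes entered the fit as a covariate. Across the 9 arrays the Casp8 probes had a Pearson correlation of 0.66, a description of arrays that share the knockdown and its brightness.

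Casp9, the initiator caspase that the apoptosome activates, showed the largest difference among probes of the 8 genes detected on all arrays. Its probe ILMN_1217061 read 7.75, 7.56 and 7.49 with hairpin 97 and 7.58, 7.64 and 7.09 with hairpin 94, against 6.55, 6.73 and 6.86 with Luc. The groups did not overlap, although hairpin 94 replicate 3, at 7.09, stood nearer to the Luc arrays than the other knockdown arrays did. The difference was 0.81 (SE 0.15, 95% interval 0.48 to 1.13, limma adjusted p = 0.0016) with both hairpins averaged, 0.89 with hairpin 97 (adjusted p = 0.0030) and 0.73 with hairpin 94 (adjusted p = 0.0082).

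The deposited signal of that Casp9 probe was 361 ± 77.2 with hairpin 97 and 327 ± 79.8 with hairpin 94, against 138 ± 7.46 with Luc (SD, n = 3 each). A second Casp9 probe, ILMN_1255180, is annotated to a cDNA record and not to the RefSeq transcript, and it lay near background. It was detected on 5 of 6 knockdown arrays and 1 of 3 Luc arrays, and its difference was -0.03 (95% interval -0.59 to 0.53, limma adjusted p = 0.93). The other 2 Casp9 probes, annotated to the same transcript as the one that passed, were detected on no array, with detection p-values of 0.33 to 0.94 and 0.28 to 0.98. The higher Casp9 level therefore rests on 1 of 4 probes.

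Casp6 cleaves nuclear lamins as an effector caspase, and its 2 probes are annotated to the same transcript. Probe ILMN_2923865 was detected on all 9 arrays and read 5.85, 6.14 and 5.85 with hairpin 97 and 5.95, 5.99 and 5.29 with hairpin 94, against 5.83, 5.08 and 5.60 with Luc. The groups overlapped, and the difference of 0.34 did not pass (95% interval -0.09 to 0.78, limma adjusted p = 0.19). It was 0.51 without Luc replicate 1 (adjusted p = 0.074), 0.13 without Luc replicate 2 (adjusted p = 0.62) and -0.12 with arrays scaled to the probes common to all 9, and it passed at 1.32 with arrays scaled to the median of all probes. Its deposited signal was 128 to 175 on knockdown arrays and 109 to 117 on Luc arrays.

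The dimmer Casp6 probe, ILMN_2923864, was detected on 3 of 3 arrays with hairpin 97 and 2 of 3 with hairpin 94, but not on a Luc array, where its detection p-values were 0.23 to 0.42. Only a bound exists for Luc there, the mean over arrays of the higher of the probe's own level and the lowest level that counts as detected. Against that bound the probe was at least 1.01-fold higher with both hairpins averaged (measured means 4.94 with knockdown and 4.44 with Luc, limma adjusted p = 0.025) and at least 1.18-fold higher with hairpin 97 (measured means 5.17 with hairpin 97 and 4.44 with Luc, adjusted p = 0.011). Both turned to lower when arrays were scaled to the probes common to all 9. With hairpin 94 the level lay under the bound, so no fold is given. The call of ILMN_2923864 with both hairpins averaged was lost in 10 alternatives. It missed the threshold without hairpin 97 replicate 5 or 6, hairpin 94 replicate 2, or Luc replicate 2 (adjusted p = 0.054, 0.050, 0.052 and 0.063), without background correction (0.17, adjusted p = 0.056), in the authors' processed values (0.12, adjusted p = 0.056), with offset 50 (0.23, adjusted p = 0.051) and with no detection filter (adjusted p = 0.068). It was also lost with cyclic loess normalisation (0.14, adjusted p = 0.60) and with each array's count of detected probes as a covariate (adjusted p = 0.76). The hairpin 97 call was lost without hairpin 97 replicate 5 (0.59, adjusted p = 0.052), with cyclic loess (0.39, adjusted p = 0.17) and with that covariate (adjusted p = 0.67).

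Apaf1, the scaffold of the apoptosome and a known p53 target, had 3 probes detected on all 9 arrays. Probe ILMN_3143577 read 8.40, 8.63 and 8.52 with hairpin 97 and 8.22, 8.39 and 8.17 with hairpin 94, against 8.65, 8.94 and 8.32 with Luc. The spread among Luc arrays covered most knockdown values. The difference was -0.25 with both hairpins averaged (95% interval -0.56 to 0.07, limma adjusted p = 0.20), an interval that holds 0. With hairpin 94 alone it was -0.37 (unadjusted p = 0.048, adjusted p = 0.11).

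That Apaf1 result depended on the Luc arrays. Without Luc replicate 2 the ILMN_3143577 difference with both hairpins averaged was -0.093 (limma adjusted p = 0.63). Without Luc replicate 3, the lowest of the Luc arrays, ILMN_3143577 passed as lower, by -0.40 with both hairpins averaged (limma adjusted p = 0.038) and by -0.53 with hairpin 94 (adjusted p = 0.022). Probe ILMN_2466335 read 8.29, 8.27 and 8.40 with hairpin 97 and 8.23, 8.23 and 8.11 with hairpin 94, against 8.29, 8.53 and 8.33 with Luc, a difference of -0.13 (95% interval -0.37 to 0.11, adjusted p = 0.37). Probe ILMN_1228561 differed by -0.29 (95% interval -0.73 to 0.15, adjusted p = 0.27), by -0.14 without Luc replicate 1 (adjusted p = 0.62), and by -0.64 with hairpin 94 when Luc replicate 3 was left out (adjusted p = 0.042). All 3 estimates were below 0 with quantile normalisation and above 0 when arrays were scaled to the median of all probes, and the deposited signal itself was higher on every knockdown array than on every Luc array for all 3. The probes had Pearson correlations of 0.61 to 0.81 with each other over the 9 arrays.

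Cycs encodes somatic cytochrome c, an electron carrier of mitochondria that triggers apoptosome assembly once it reaches the cytosol. Its probe ILMN_1250564 had deposited signals of 1214, 964 and 1121 with hairpin 97 and 776, 1143 and 872 with hairpin 94, against 316, 369 and 450 with Luc. After normalisation it read 9.35, 9.52 and 9.56 with hairpin 97 and 9.34, 9.29 and 9.15 with hairpin 94, against 8.96, 9.10 and 9.33 with Luc. Normalisation thus brought groups that did not overlap into overlap. The difference was 0.24 with both hairpins averaged (95% interval -0.03 to 0.51, limma adjusted p = 0.14) and 0.35 with hairpin 97 (unadjusted p = 0.033, adjusted p = 0.082). In the authors' processed values both passed, at 0.19 with both hairpins averaged (adjusted p = 0.046) and at 0.28 with hairpin 97 (adjusted p = 0.020). The hairpin 97 difference of ILMN_1250564 also passed without background correction (0.31, adjusted p = 0.024), with offset 50 (0.33, adjusted p = 0.034), with a robust trended prior (adjusted p = 0.037), over the probes common to all 9 arrays only (0.35, adjusted p = 0.049), without Luc replicate 3 (0.45, adjusted p = 0.034) and scaled to the median of all probes (1.79). The mouse genome holds processed copies of Cycs, so other loci may add to this signal. A second probe, ILMN_3076459, was detected on 4 of 6 knockdown arrays and 0 of 3 Luc arrays, lay under the bound for Luc and did not pass (adjusted p = 0.15). The remaining Cycs probe was detected on no array, with detection p-values of 0.61 to 0.97.

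Diablo, also called Smac, binds inhibitor of apoptosis proteins and frees caspases from them. Probe ILMN_1221981 read 7.18, 7.28 and 7.24 with hairpin 97 and 6.95, 7.06 and 7.01 with hairpin 94, against 7.58, 7.80 and 7.77 with Luc. The 3 groups formed 3 separate ranges, lowest with hairpin 94. Relative to the array, the message fell by 0.60 with both hairpins averaged (SE 0.11, 95% interval -0.83 to -0.36, limma adjusted p = 0.0016), by 0.48 with hairpin 97 (adjusted p = 0.013) and by 0.71 with hairpin 94 (adjusted p = 0.0020), and this direction turned when arrays were scaled to the median of all probes.

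The deposited signal of the same Diablo probe pointed the other way. It was 328, 268 and 285 with hairpin 97 and 214, 303 and 263 with hairpin 94, against 172, 199 and 202 with Luc, so every knockdown array was higher. Quantile normalisation, which gives all arrays 1 distribution, turned this order round. Scaling arrays to the median of all probes gave a difference of 0.84 (limma adjusted p = 0.00045), and the sign of the Diablo result thus depends on the scaling. The call with hairpin 97 was also lost without hairpin 97 replicate 4 (-0.46, adjusted p = 0.053). The second Diablo probe was detected on no array, with detection p-values of 0.19 to 0.83.

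**Figure D2:**
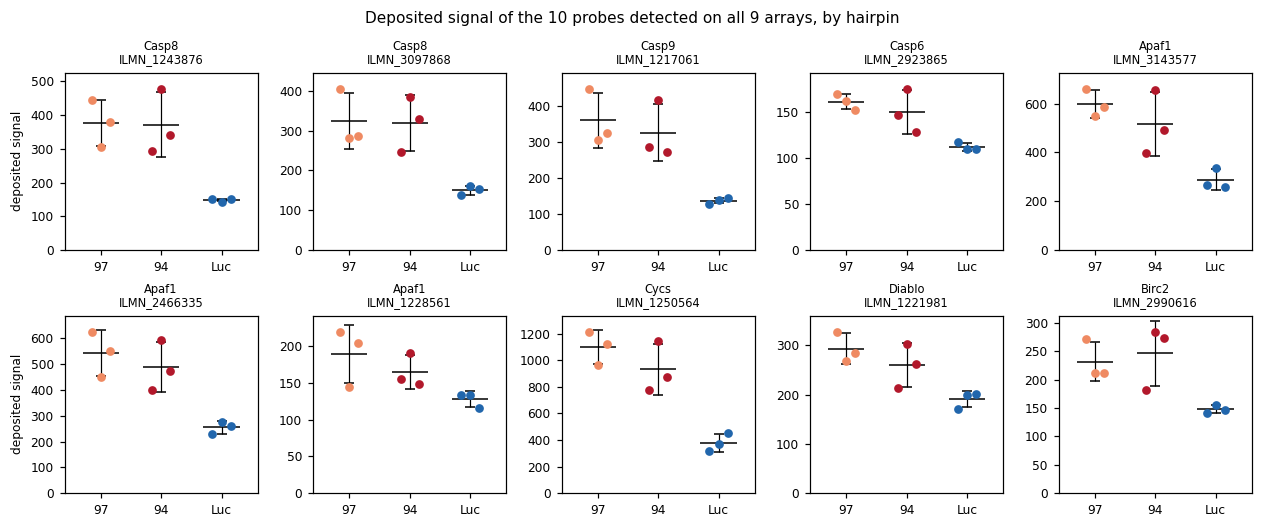
Deposited signal (linear y axis from 0) of the probes of the 8 genes detected on all 9 arrays, 1 point per array, for hairpin 97, hairpin 94 and Luc, with lines at the mean ± SD. The Diablo points are higher on every knockdown array, at 214 to 328 against 172 to 202 with Luc, unlike its quantile-normalised level.

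Xiap, the X-linked inhibitor that blocks caspase-9 and some effector caspases, could not be followed. Its 4 probes were detected on 0 of 9 arrays, with detection p-values from 0.081 to 0.98 and deposited signals of 84.8 to 104. These values set no limit on the message itself, since a probe that binds poorly also reads near background.

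Birc2 encodes cIAP1, a ubiquitin ligase that restrains caspase-8 activation at the receptor of tumour necrosis factor. Its brightest probe, ILMN_2990616, read 6.82, 6.79 and 6.61 with hairpin 97 and 6.55, 6.95 and 7.09 with hairpin 94, against 6.94, 7.13 and 6.93 with Luc. The groups overlapped, and the difference of -0.20 did not pass (95% interval -0.50 to 0.11, limma adjusted p = 0.28). The other 3 Birc2 probes were detected on 8, 4 and 3 of the 9 arrays, with differences of -0.51, -0.10 and 0.14 (adjusted p = 0.12, 0.70 and 0.47). Of these, ILMN_1226186 passed as lower without Luc replicate 1, with a difference of -0.90 (adjusted p = 0.0020), and with cyclic loess normalisation, with -0.47 (adjusted p = 0.027), whereas without Luc replicate 2 it gave -0.16 (adjusted p = 0.52). Scaled to the probes common to all 9 arrays, ILMN_1226186 and ILMN_2422023 both passed as lower, at -1.46 (adjusted p = 2.4e-05) and -1.33 (adjusted p = 0.00011).

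**Figure D3:**
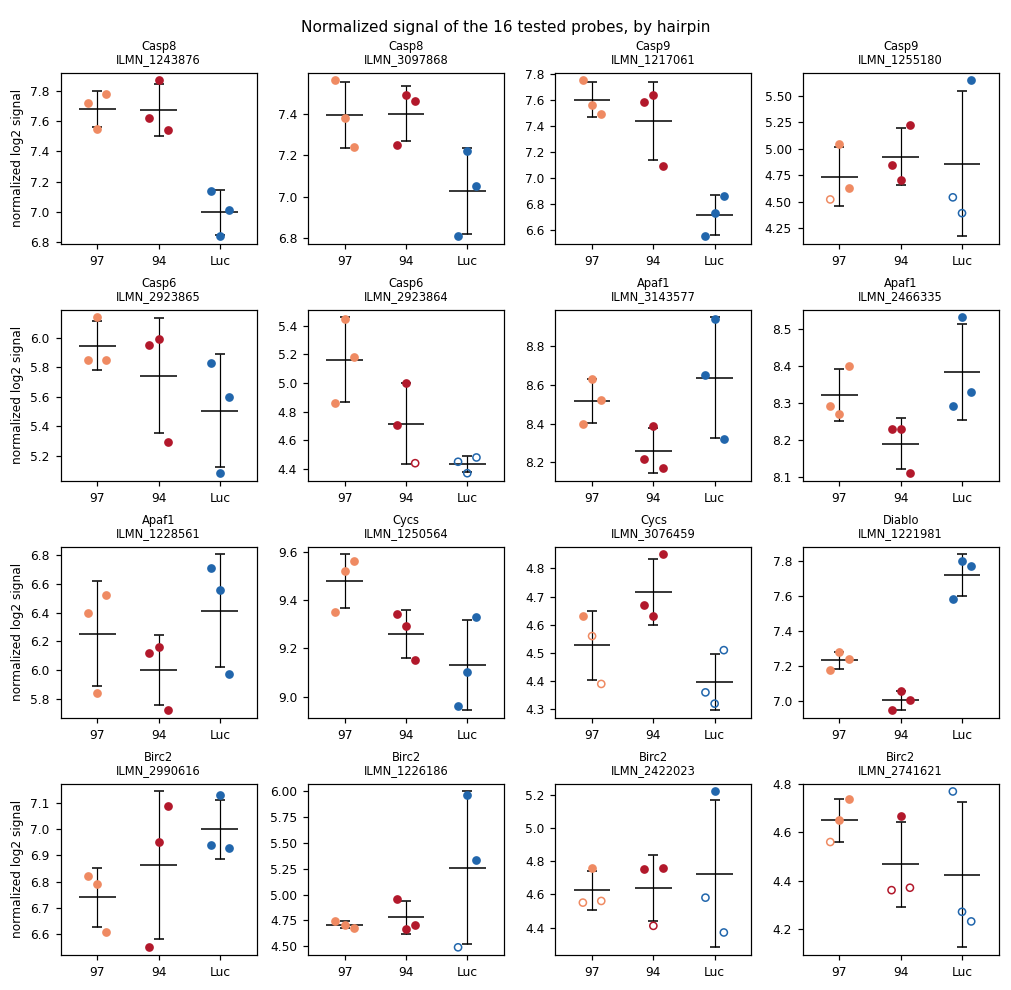
Quantile-normalised log2 level (y axis) of the tested probes of the 8 genes, 1 point per array, for hairpin 97, hairpin 94 and Luc, open where the detection p-value was not under 0.05, with lines at the mean ± SD. The brightest Casp8 and Casp9 probes are higher on every knockdown array and the Diablo probe is lower on every one, the latter a direction that turns when arrays are scaled to the median of all probes.

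Over the 16 tested probes, 3 were higher on every knockdown array than on every Luc array after normalisation, 1 was lower and 12 overlapped. This is 25.0% without overlap, against 34.2% of all tested probes (21.5% above and 12.6% below). In the deposited signal, which carries the higher mean of the knockdown arrays, 10 of the 16 were higher on every knockdown array, 0 were lower and 6 overlapped. Of the 60 tested probes of the further lists below, 37 were also higher on every knockdown array. The share over all tested probes was not counted for the deposited signal. Detection followed the same order, with 13 to 15 of the 24 probes detected on a knockdown array and 10 to 12 on a Luc array.

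Each hairpin was also set against Luc alone, and both comparisons use the same 3 Luc arrays. Hairpin 97 had 3 probes higher and 1 lower of 16, or 25.0%, against 33.4% of all tested probes (21% higher and 12.4% lower). Hairpin 94 had 2 higher and 1 lower, or 18.8%, against 32.8% of all tested probes (20.3% higher and 12.5% lower). Casp8, Casp9 and Diablo passed in both, and the further call with hairpin 97 was the dim Casp6 probe. The latter was detected on no Luc array.

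Between the hairpins, hairpin 97 minus hairpin 94, 0 of 16 probes passed in limma, 1 had an unadjusted p under 0.05, and of all tested probes 0.183% passed and 8.52% had such an unadjusted p. The difference was 0.01 for Casp8 ILMN_1243876 (95% interval -0.31 to 0.33), 0.16 for Casp9 (-0.21 to 0.53) and 0.23 for Diablo (-0.05 to 0.50). A miss of the threshold does not show that the hairpins act alike, and the intervals give the sizes that remain possible. The probe with the low unadjusted p was the dim Casp6 probe, which was 0.45 higher with hairpin 97 (unadjusted p = 0.032, adjusted p = 0.52). The 3 Apaf1 estimates between hairpins were 0.14 to 0.25, and none passed.

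The direction of several of the 8 genes depended on the scaling. Scaling each array to the median of all probes brought 11 of the 16 probes past the threshold, all of them higher, and moved the median of all tested probes to 0.88. Scaling to the probes common to all 9 arrays gave 3 higher and 7 lower, with a median of all tested probes of -0.55. Casp8 ILMN_1243876 and Casp9 ILMN_1217061 were higher and passed in 20 of 21 alternatives each (adjusted p at most 0.0066 and 0.0056 in those 20), and the exception was the fit that took each array's count of detected probes as a covariate, in which 0 of 13641 probes passed. Diablo was lower and passed in 19 of 21.

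**Figure D4:**
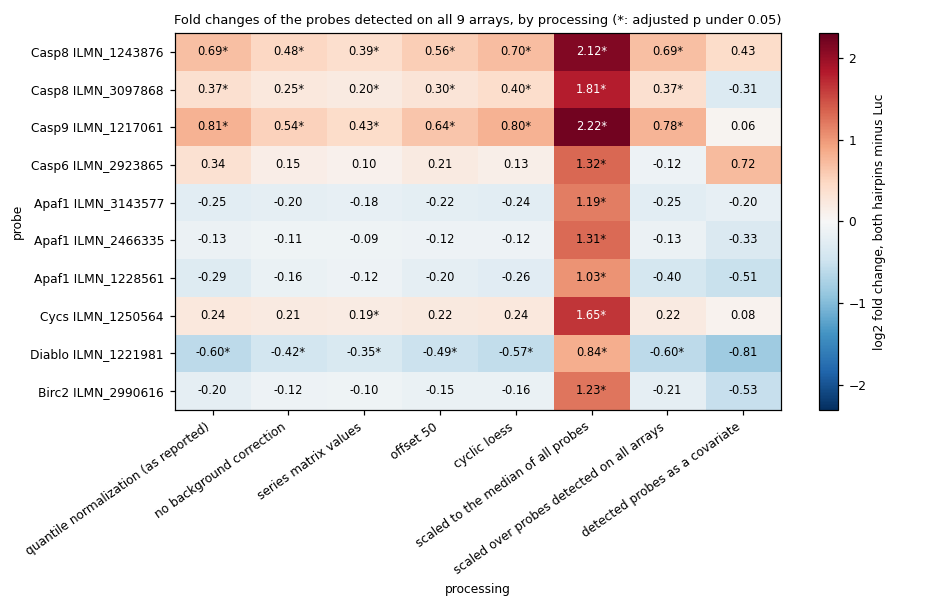
Log2 difference of both hairpins averaged from Luc (colour scale) for each probe of the 8 genes detected on all 9 arrays (rows), under 8 ways of processing (columns), with an asterisk where the adjusted p was under 0.05. The rows of Casp8 ILMN_1243876 and Casp9 keep their sign throughout, and the Diablo row turns to higher with arrays scaled to the median of all probes.

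Genes whose levels followed these most closely were sought among 6028 probes detected on all 9 arrays, by Pearson correlation over the 9 arrays, which share the contrast in brightness. Bloc1s2 (0.99) and Arf3 (0.99) came closest to Casp8, Emc6 (0.97) and Aggf1 (0.97) to Casp9, and Cers5 (0.98) and Brix1 (0.98) to Diablo. For the other genes the highest correlations were 0.98 for Casp6 with Prps1l3, 0.96 for Apaf1 with Eftud2, 0.95 for Cycs with Pafah1b1 and 0.95 for Birc2 with H4c8. These values describe likeness on 9 arrays only.

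The rest of the cascade was described by 6 lists of 49 further genes, of which 42 had a probe and 32 a tested one. Of the 60 tested probes, 17 were higher and 9 lower after knockdown with both hairpins averaged, or 43.3%, against 40.7% of all tested probes, and these counts became 51 and 0 with arrays scaled to the median of all probes and 5 and 41 with arrays scaled to the probes common to all 9. The median difference was 0.17, against 0.11 over all tested probes. The higher and lower probes differed in detection, as they did on the arrays at large. Of the list probes, 4 of the 17 higher and 8 of the 9 lower ones were detected on all 9 arrays. Among all tested probes this held for 1537 of 3465 higher and 1800 of 2089 lower ones. Of the 17 higher list probes, 10 were detected on no Luc array, a share not counted over all probes. Such probes entered the test through knockdown arrays alone. With hairpin 97 alone 13 were higher and 6 lower, or 31.7%, against 33.4% of all tested probes. With hairpin 94 alone 15 were higher and 9 lower, or 40%, against 32.8%. Between the hairpins 0 of 60 passed, as did 0.183% of all tested probes. The counts of single lists below rest on few probes. They are to be read beside 25.4% higher and 15.3% lower among all tested probes.

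Among other caspases, 2 of 4 tested probes were higher and 0 lower. Casp2, an initiator caspase activated in the PIDDosome complex, had a difference of 0.52 (SE 0.13, limma adjusted p = 0.0077), and its deposited signal was 512 to 944 on knockdown arrays and 226 to 268 on Luc arrays. The groups did not overlap in the deposited signal. The same held for 37 of the 60 tested list probes, 6 of them called lower, so this separation is not particular to Casp2. The Casp2 sign was the same under every scaling tried, but it rests on 1 probe, since the other Casp2 probe was detected on no array. Casp4, the inflammatory caspase that senses lipopolysaccharide, had 1 higher probe (1.02, adjusted p = 0.0052), detected on 2 of 3 Luc arrays, and 1 that did not pass (-0.23, adjusted p = 0.23).

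In the inhibitor of apoptosis family 3 of 7 tested probes were higher and 2 lower. The lower ones were probes of Birc5, survivin, an inhibitor protein that also serves chromosome segregation, with differences of -0.49 and -0.34 (limma adjusted p = 0.018 and 0.024). Both turned to higher with arrays scaled to the median of all probes. They passed with hairpin 94 (-0.78 and -0.52, adjusted p = 0.0047 and 0.0074) but not with hairpin 97 (-0.20 and -0.15, adjusted p = 0.38 and 0.35). Another Birc5 probe gave 0.13 (adjusted p = 0.45) with both averaged. It gave -0.18 with hairpin 94 (adjusted p = 0.37) and passed as higher with hairpin 97 (0.44, adjusted p = 0.041). Between the hairpins no Birc5 probe passed. The 3 higher ones, 2 of Birc6 and 1 of Naip2, were detected on no Luc array. None of these 3 passed with cyclic loess (0.19, 0.18 and 0.24), and all 3 turned to lower with arrays scaled to the probes common to all 9 (-1.03, -1.02 and -0.60). The Birc3 probe was detected on 0 of 9 arrays.

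Other mitochondrial proteins had 1 of 7 tested probes higher and 1 lower, and both belonged to Htra2, a mitochondrial protease that binds inhibitor of apoptosis proteins (0.63 and -0.43, limma adjusted p = 0.0039 and 0.013). Apoptosome modulators had 2 of 5 higher and 1 lower, among them Cse1l, which assists apoptosome formation and nuclear export, at 0.74 (adjusted p = 0.019). The other higher one was of Aven, which binds Apaf1 and hinders apoptosis (0.69, adjusted p = 0.021), and the lower one of Anp32a, near background. Aven did not pass with cyclic loess (0.33, adjusted p = 0.064) or with arrays scaled to the probes common to all 9 (0.076, adjusted p = 0.64), and Anp32a did not pass scaled to the median of all probes. Complexes that activate caspase-8 and caspase-2 had 3 of 16 higher and 1 lower, the lower one a probe of the adaptor Fadd (-0.54, adjusted p = 0.0077). The 3 higher ones, of Fadd, of Fas, a death receptor and known p53 target, and of Ripk3, a kinase of necroptosis, were detected on all 6 knockdown arrays and 0 Luc arrays. None of these 3 passed with cyclic loess (0.11, 0.25 and 0.35), and with arrays scaled to the probes common to all 9 the Fadd and Fas probes turned to lower (-0.47 and -0.46) and the Ripk3 probe to -0.32, which did not pass. Other tested Fas probes did not pass and differed in sign, at -0.69 (limma adjusted p = 0.064) and 0.29 (adjusted p = 0.17). Cflar, the caspase-8 inhibitor c-FLIP, gave 0.24 and did not pass (adjusted p = 0.30). The lower Htra2 and Fadd probes turned to higher with arrays scaled to the median of all probes.

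Among caspase substrates 6 of 21 tested probes were higher and 4 lower. Parp1, a DNA repair enzyme that caspases cleave, had lower probes (-0.75 and -0.605, limma adjusted p = 0.00048 and 0.0041). Lmna, a nuclear lamin, had a lower probe as well (-0.72, adjusted p = 0.0033). All of these turned to higher with arrays scaled to the median of all probes. Lmnb1, another lamin, was higher by 0.45 (adjusted p = 0.032). Probes of Fadd, Htra2, Lmna and Parp1 passed in opposite directions within the same gene. Further tested probes of Fadd, Htra2 and Lmna did not pass. For Fadd, Lmna and Parp1 the higher probe was detected on no Luc array, and it was at least 1.26-fold, 1.44-fold and 1.30-fold higher with knockdown than the bound for Luc. With cyclic loess none of these 3 probes passed (0.11, 0.38 and 0.14), and with arrays scaled to the probes common to all 9 the Fadd and Parp1 probes turned to lower (-0.47 and -0.42) and the Lmna probe to -0.11, which did not pass.

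**Figure D5:**
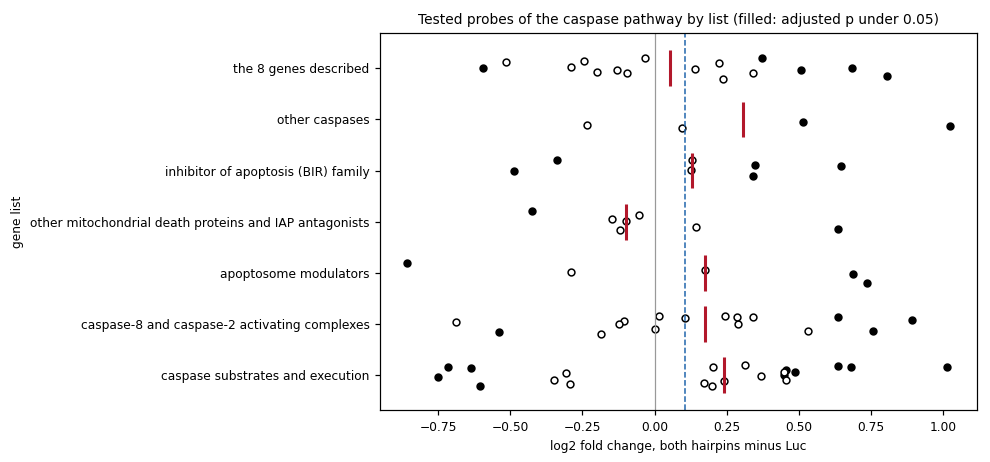
Log2 difference of both hairpins averaged from Luc (x axis) for the tested probes of the 6 lists (rows) and of the 8 genes above them, 1 point per probe, filled where the adjusted p was under 0.05. Short bars are list medians and the dashed line is the median of all tested probes, 0.11. Other caspases hold 2 higher and 0 lower probes, substrates 6 higher and 4 lower, and with arrays scaled to the median of all probes no probe of the 6 lists is called lower. Of all tested probes, 25.4% were higher and 15.3% lower.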

How the data were processed

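Per the labels' protocols, RNA was extracted with Trizol, labelled with biotin and hybridised to Illumina bead arrays. The authors deposited, per the file headers, a signal intensity and a detection p-value for each probe and sample, not normalised, and a second table of processed log2 values, whose median is the same on every array and whose ranks match those of the intensities. The software is not given in the sources used here.

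Intensities were background-corrected (normexp with negative-control parameters inferred from the detection p-values, offset 16), quantile-normalised and put on the log2 scale in R 4.3.3 with limma 3.58.1. The 13641 probes with a detection p-value under 0.05 on at least 3 arrays were fitted over all 9 samples (lmFit, eBayes), with Benjamini-Hochberg adjustment over all of them and 0.05 as threshold. The model fit alone was tested on simulated data, which did not cover the background correction, the quantile normalisation or the difference in brightness. Arrays of 1 group correlated at 0.961 to 0.990, 0 arrays were identical, and 3 arrays a group limit the precision.

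All probes of the 8 genes are described. From the further lists, Cflar and Birc3 were named in any case, with the 2 highest and 2 lowest called probes of each list among those detected on all 9 arrays. Other list genes and probes were named after their values were seen. The members and lists were chosen with earlier results of these data known.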

Additional observations from a re-analysis of the deposited data

How the results depend on the processing

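The Casp8 ILMN_1243876 and Casp9 calls with both hairpins averaged were lost in 1 of 21 alternatives, when each array's count of detected probes entered the fit as a covariate. Casp8 then gave 0.43, Casp9 0.057 and Diablo -0.81. That count separates knockdown from Luc arrays, and 0 of the 16 caspase cascade probes and 0 of all tested probes passed in limma in each of the 3 comparisons with Luc (1411 had an unadjusted p under 0.05 with both hairpins averaged). Casp8 ILMN_3097868 turned to -0.31 there with both hairpins averaged, and Casp9 ILMN_1217061 to -0.019 with hairpin 94.

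Scaled to the median of all probes, 11, 11 and 10 of the 16 probes passed with both hairpins averaged, hairpin 97 and hairpin 94, as did 9958, 9420 and 9351 of all probes. In the same order, Apaf1 ILMN_3143577 turned to 1.19, 1.33 and 1.04, Apaf1 ILMN_2466335 to 1.31, 1.40 and 1.21, Apaf1 ILMN_1228561 to 1.03, 1.19 and 0.88, Diablo to 0.84, 0.97 and 0.71, and Birc2 ILMN_2990616 to 1.23, 1.18 and 1.28. Scaled to the probes common to all 9 arrays, 10, 8 and 10 passed, as did 9761, 9215 and 8998 of all probes. There Casp6 ILMN_2923864 turned to -0.77, -0.54 and -1.01, Cycs ILMN_3076459 to -1.17, -1.30 and -1.04, Birc2 ILMN_2741621 to -1.22, -1.14 and -1.29, and Casp9 ILMN_1255180 with hairpin 94 to -1.01. The cause of these turns was not tested.

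With both hairpins averaged, 3 caspase cascade probes passed with no detection filter, as did 4880 of all 45281 probes (10.8%), and 3 of 7 with 1 probe per gene, where fewer probes are tested and 3505, 2937 and 2895 of all passed in the same order. Leaving out 1 array gave 3 to 5 passing probes with both hairpins averaged, with hairpin 97 and with hairpin 94, against 34.1% to 41.1% of all probes with both averaged and 22.8% to 35.7% with a single hairpin. The count was 3 without hairpin 97 replicate 5 or hairpin 94 replicate 2 with both hairpins averaged, and 5 without Luc replicate 3 with hairpin 94. With hairpin 97, 6 passed without background correction and 6 in the authors' processed table, against 33.4% and 33.1% of all probes.

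Between the hairpins 0 of the 16 probes passed in each alternative, whereas the count over all probes was 25 as reported, 140 without background correction, 155 in the processed table, 95 with offset 50, 190 with cyclic loess, 14 scaled to the median of all probes, 68 scaled to the probes common to all 9 arrays, 104 over those probes only, 8 with no filter, 84 with a robust trended prior, 151 with those 6 arrays only and 0 to 47 with 1 array left out.

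The labels give the hairpin 94 and Luc samples the same replicate numbers, but same-numbered arrays deviated together only weakly (r = 0.070, 0.051 and 0.14), and not every array correlated best with its own number, so the numbers were not taken as pairs. With the number as a replicate block, 3 probes of the 16 passed, as without it, and 2820 of all probes against 4472. With block and covariate together 0 of 16 and 0 of all passed, and Casp8 ILMN_1243876 turned to -0.34 and Casp9 ILMN_1217061 to -1.59. Probes near background, such as those of Xiap, set no limit on their message.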
